A study of Homo sapiens with 4 samples.

Results

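The 9 genes CA9, CA12, CA2, CA13, SLC16A1, SLC16A3, BSG, SLC4A7 and SLC4A2 encode carbonic anhydrases and transporters that move bicarbonate, lactate and protons across membranes. They were taken by symbol from 25343 genes of a deposited expression table, and all 9 were found. They were chosen for their part in tumor pH control and because CA9 and CA12 were already known to be lower in the knockdown group; that is, they were chosen by log2 changes measured in these same libraries. Their differences between the groups are therefore given as a description, without p-values.

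RNA was sequenced from SUM149PT cells, a line established from an inflammatory breast cancer, after stable lentiviral infection. The control group held 2 libraries of cells with a control shRNA vector (short hairpin RNA, processed by the cell into a small RNA). The EMP2 knockdown group held 2 libraries of cells with a vector against EMP2, which encodes a tetraspan membrane protein related to PMP22; the construct has the same name in both knockdown libraries, so effects of EMP2 loss and of this hairpin on other transcripts cannot be told apart. Nothing in the labels says that libraries of a group came from separate cultures, so every SD, SE and p-value measures only the spread between these libraries, which may be technical. All 4 libraries came from cells grown with serum, insulin and hydrocortisone; no low-oxygen or acid treatment is named.

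Cells that burn glucose quickly make lactate and protons, and tumor cells must export both to keep the cytosol from turning acid. Carbonic anhydrases speed the interconversion of carbon dioxide and water with bicarbonate and protons; the forms that face the outside of the cell work beside bicarbonate importers and lactate exporters. CA9 is among the best known target genes of the hypoxia-inducible factors (HIF), which bind DNA at a short core that reads ACGTG or GCGTG.

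Because CA9 and SLC16A3 are textbook genes of the low-oxygen response, the sequence before the start sites was searched for that core. The RefSeq promoter table (GRCh38.p14, 250 bases before and 50 after each start) matched 6 of the 9 genes, with 15 start sites: CA9, CA12, SLC16A3, BSG, SLC4A7 and SLC4A2. ACGTG, read on either strand, stood at 5 of the 15 start sites, against 25.2% of the 14517 promoters of tested genes and 21.4% of all 35116. GCGTG, likewise on either strand, stood at 9 of the 15, against 48.3% of the promoters of tested genes. The starts are not independent: those of SLC4A2 at 151062547 and 151062642 have overlapping windows that hold the same copies of ACGTG. Windows of 30 bases follow, 5′ to 3′ on the strand of the gene, chosen because they hold the core closest before a start (CA9), its only copy before the start (CA12), a repeat of it (SLC16A3) or its palindrome (BSG and SLC4A2); capitals mark ACGTG or its reverse complement, or for CA12 the reverse complement of GCGTG.
CA9, chr9:35673898-35673927, plus strand: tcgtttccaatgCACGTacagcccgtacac
CA12, chr15:63382059-63382088, minus strand: atctcaccCACGCctgccagcagctcctcg
SLC16A3, chr17:82228966-82228995, plus strand: aggcggtgACGTGcgcgggggACGTGccgc
BSG, chr19:572395-572424, plus strand: cgccgggtCACGTGcgccgccgcccggatt
SLC4A2, chr7:151062425-151062454, plus strand: cccctgccCACGTGccacccaggcccgccc

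The CA9 core ran from 18 to 14 bases before its start, and that window ended at the last base before the start. In CA12 the marked letters ran from 234 to 230 bases before the start, and no ACGTG stood in its 300 bases. SLC4A7, whose window is not printed, also had no ACGTG at its listed starts. Before its start at 27484384, GCGTG ran from 138 to 134 and from 110 to 106 bases. SLC16A3 had the first of its copies from 68 to 64 bases before the second of its 5 listed starts. The SLC4A2 window is 1 of 3 with the palindrome CACGTG, which reads as ACGTG on both strands, in the 300 bases around the start at 151062547; CACGTG stood in 9.16% of promoters of tested genes. A match describes letters only; whether HIF was bound at any of them was not measured.

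The libraries held 13360907 to 14647053 recovered reads, and values are given as CPM, reads of a gene as a share of its library's total, scaled by the trimmed mean of M values (TMM). EMP2 itself stood at 126.1 and 124.6 CPM in control cells, against 23.0 and 22.6 CPM in knockdown cells, 18.2% of the control mean (log2 change -2.43, SE 0.051, limma adjusted p = 3.7e-15). The epithelial markers were all present in every library. Their summed level was 5412 to 5511 CPM in the controls and 6259 to 6268 CPM in the knockdowns. Of these, 5 of 8 rose (CDH1, KRT8, KRT18, KRT7 and KRT17) and 1 fell (KRT14, log2 change -1.07), at a limma adjusted p under 0.05. By the same rule 16.6% of all genes tested were called higher and 16.8% lower. Among the other markers, summed levels were 129.9 to 131.2 against 120.7 to 124.1 CPM for 5 fibroblast genes (1 rose and 1 fell), 85.8 to 89.0 against 63.6 to 66.3 CPM for 5 leukocyte genes (0 rose and 1 fell), nearly all of it CD68, and 2.50 to 2.91 against 2.32 to 2.44 CPM for 4 endothelial genes (none called). Within the fibroblast list FAP rose from 16.3 and 15.5 CPM to 33.6 and 36.0 CPM and DCN fell from 75.4 and 70.0 CPM to 42.7 and 40.8 CPM (limma adjusted p = 1.27e-08 and 8.94e-09). COL1A2 and CD3E were at 0 in all 4 libraries, and PTPRC stayed under 0.3 CPM. Of the hormone receptor genes PGR was at 0 or 1 read, whereas ESR1 was low and rose, from 1.94 and 1.36 CPM to 5.17 and 5.47 CPM. The part of these marker changes in the results that follow was not tested.

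CA9 encodes a transmembrane carbonic anhydrase with its active site outside the cell. It was at 55.7 and 56.6 CPM in control cells, against 33.1 and 34.5 CPM in knockdown cells. Both knockdown values lay below both controls, with a gap of 21.1 CPM between the groups, and the mean went from 56.1 ± 0.625 to 33.8 ± 0.981 CPM (SD, n = 2), 60.3% of the control level. The log2 change, always knockdown minus control on log2(CPM + 0.5), was -0.72 (SE 0.057). The CA9 locus on chromosome 9 (35673856 to 35681159, GRCh38, plus strand) overlaps 2011 bases of ARHGEF39 on the other strand. No source used here says whether reads were counted by strand; ARHGEF39 was at 17.4 and 16.7 CPM in control cells, against 15.2 and 19.3 CPM in knockdown cells, groups that overlap.

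CA12 encodes another membrane-bound carbonic anhydrase with an outward-facing active site, known in breast tissue as an estrogen-responsive gene. It showed the widest relative difference of the 9 genes. Its level was 18.8 and 20.1 CPM in control cells, against 5.02 and 6.37 CPM in knockdown cells. The mean went from 19.4 ± 0.886 to 5.70 ± 0.951 CPM (SD, n = 2), so that 29.3% of the control level was left, and the log2 change was -1.69 (SE 0.13). The values rest on few reads: 70 and 85 in the knockdowns, with exact 95% Poisson intervals of 54.6 to 88.4 and 67.9 to 105.1 reads, against 272 and 265 in the controls. These intervals cover counting error only.

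The cytosolic forms differed less. CA2, a fast cytosolic carbonic anhydrase found in many tissues, was at 55.5 and 56.6 CPM in control cells, against 46.9 and 45.8 CPM in knockdown cells. The knockdown mean was 82.6% of the control mean (log2 change -0.27, SE 0.052), and the groups did not overlap. CA13, a further cytosolic form, was at 6.43 and 6.51 CPM in control cells, against 5.45 and 6.22 CPM in knockdown cells, which left 0.215 CPM between the groups. With 76 and 83 reads in the knockdowns and 93 and 86 in the controls, a difference of that size was not detectable at this depth: the log2 change of -0.14 (SE 0.15) had a 95% confidence interval of -0.45 to 0.17. The 2 outward-facing anhydrases therefore had the lower percentages of control, 60.3% and 29.3%, and the 2 cytosolic ones 82.6% and 90.2%; whether these percentages differ between the kinds of enzyme was not tested.

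**Figure D1:**
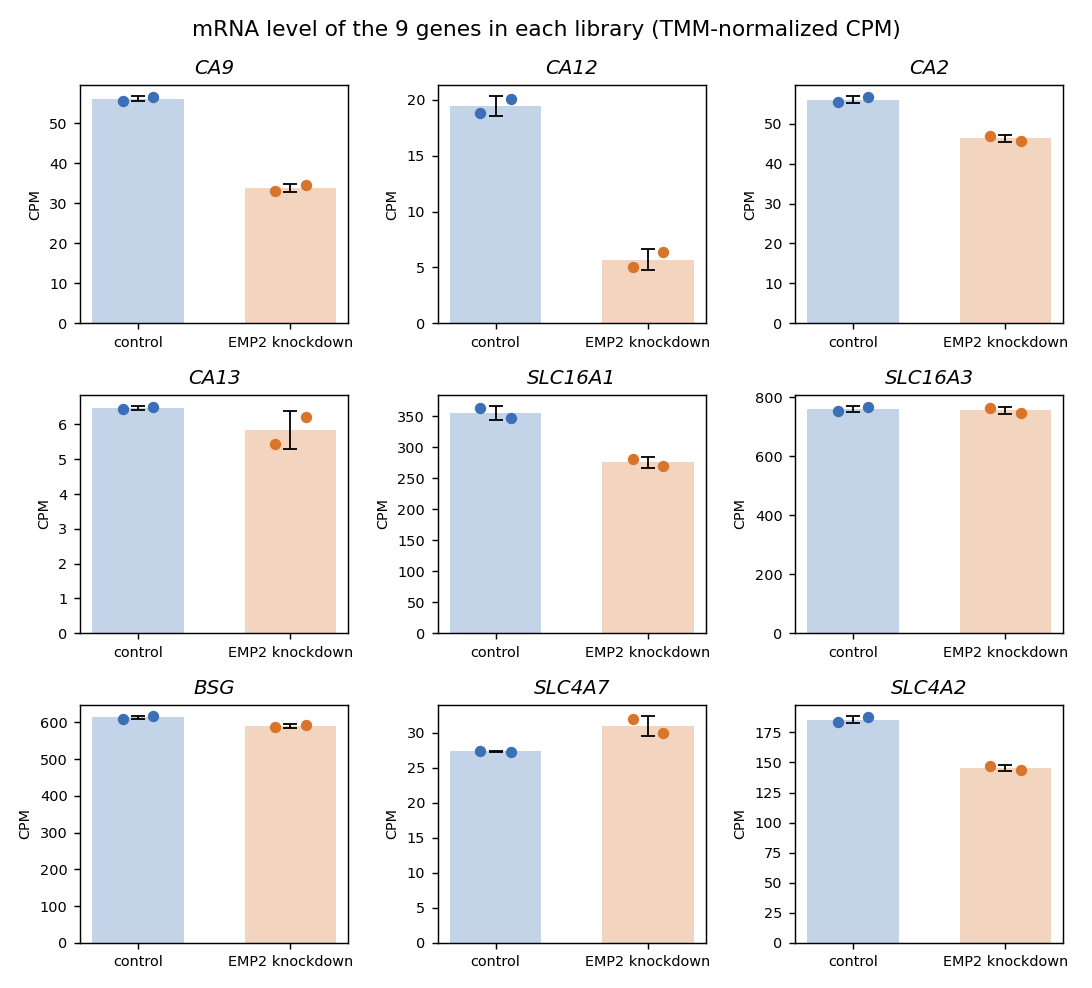
Level of each of the 9 genes in CPM (vertical axis, from 0, own scale per gene) in the control (blue) and EMP2 knockdown (orange) libraries; points are single libraries, bars the group mean and whiskers the SD (n = 2). CA12 went from 18.8 and 20.1 CPM to 5.02 and 6.37 CPM and CA9 from 55.7 and 56.6 CPM to 33.1 and 34.5 CPM, whereas the SLC16A3 libraries of both groups lie between 746.6 and 766.3 CPM.

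The lactate transporters differed from each other. SLC16A1 encodes MCT1, a transporter that carries lactate together with a proton and can work in both directions. It was at 362.8 and 347.1 CPM in control cells, against 281.5 and 269.0 CPM in knockdown cells. The mean went from 355.0 ± 11.1 to 275.2 ± 8.81 CPM (SD, n = 2), 77.5% of the control level, with no overlap between the groups (log2 change -0.37, SE 0.032). SLC16A3 encodes MCT4, the lactate exporter of strongly glycolytic cells. Its level was 752.3 and 766.3 CPM in control cells, against 762.5 and 746.6 CPM in knockdown cells, so that the groups overlapped. The log2 change of SLC16A3 was -0.01 (SE 0.024, 95% confidence interval -0.06 to 0.04), and it was 0.01 when libraries were scaled by their total reads. Its values rest on 9966 to 10875 reads a library. Its locus spans 22107 bases of CSNK1D on the other strand, which was at 217.4 and 213.2 CPM in control cells, against 229.2 and 223.0 CPM in knockdown cells.

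BSG encodes basigin, the membrane protein that brings MCT1 and MCT4 to the cell surface. It was at 610.6 and 616.4 CPM in control cells, against 586.6 and 593.5 CPM in knockdown cells. The groups did not overlap, but only 17.1 CPM separated them. The knockdown mean was 96.2% of the control mean and the log2 change -0.06 (SE 0.024), which came to -0.01 with quantile scaling.

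The bicarbonate transporters lay on opposite sides of 0. SLC4A7 encodes NBCn1, a sodium-coupled importer of bicarbonate. It was at 27.4 and 27.3 CPM in control cells, against 32.0 and 29.97 CPM in knockdown cells. Its log2 change of 0.18 (SE 0.070) was the only one of the 9 above 0, and the knockdown mean was 113.2% of the control mean. SLC4A2 encodes AE2, which exchanges chloride for bicarbonate and so loads the cell with acid. It was at 183.5 and 187.8 CPM in control cells, against 147.0 and 143.5 CPM in knockdown cells, with 36.5 CPM between the groups. The mean went from 185.7 ± 3.03 to 145.2 ± 2.51 CPM (SD, n = 2), 78.2% of the control level (log2 change -0.35, SE 0.034). CDK5, which overlaps the SLC4A2 locus by 1321 bases on the other strand, was at 21.0 and 22.0 CPM in control cells, against 20.0 and 20.9 CPM in knockdown cells.

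In the fit over all 13661 tested genes, 5 of the 9 genes were called lower (CA9, CA12, CA2, SLC16A1 and SLC4A2) and 0 higher, where 16.8% of all genes were called lower and 16.6% higher (limma, adjusted p under 0.05); edgeR (17.4% of all genes lower, 15.6% higher) and DESeq2 (8.65% lower, 7.27% higher) also called 5 lower and 0 higher. At an unadjusted p under 0.05 limma placed 6 lower, BSG added, and 1 higher, SLC4A7. The share of all genes at that looser threshold was not computed, so the percentages above belong to the adjusted calls only. Since the choice of genes used this contrast, nothing is read from these counts. In 8 of the 9 genes the libraries of the groups did not overlap, and the same held for 65.6% of all genes tested. All 9 passed the filter of 1 CPM in all 4 libraries, the lowest value being 5.02 CPM for CA12. Their median log2 change was -0.27, beside 0.00 over all genes tested.

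**Figure D2:**
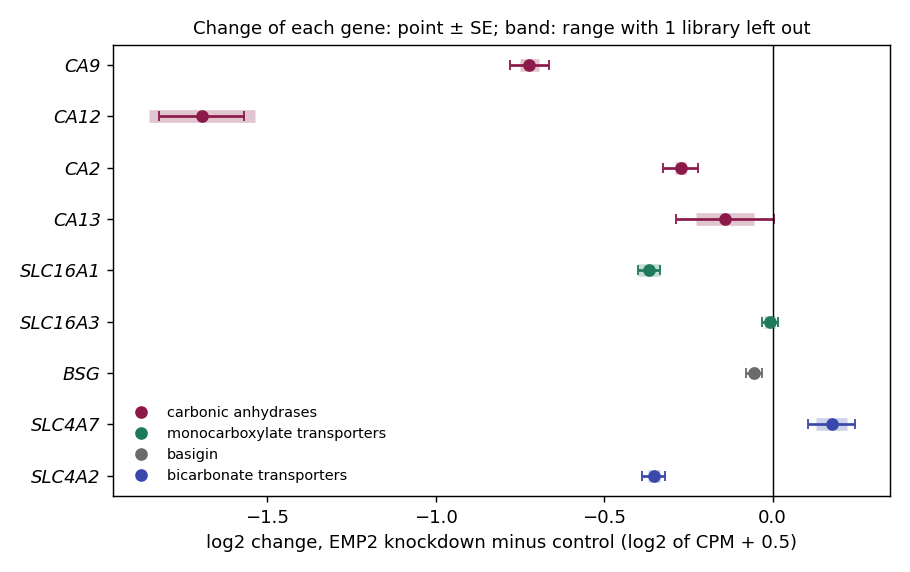
Log2 change of each of the 9 genes (horizontal axis, knockdown minus control on log2 of CPM + 0.5); points show the fitted change, whiskers its SE and pale bands the range when 1 library is left out. CA12 ranged from -1.85 to -1.54 and CA9 from -0.75 to -0.69, while SLC4A7 lay between 0.13 and 0.22 and SLC16A3 between -0.02 and 0.01.

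Levels of different genes can be set beside each other only per length. Dividing CPM by the merged exon length of each gene in GENCODE 29 (GRCh38), which may differ from the annotation used for counting, gave in the controls 161.6 ± 1.09 CPM per kilobase for BSG, 84.4 ± 1.10 for SLC16A3 and 66.8 ± 2.09 for SLC16A1 (SD, n = 2). CA9 followed at 33.6 ± 0.374, CA2 at 26.4 ± 0.389 and SLC4A2 at 24.5 ± 0.400 CPM per kilobase. SLC4A7 (2.85 ± 0.00404), CA12 (2.66 ± 0.121) and CA13 (1.17 ± 0.0102) came last on this scale. Neighbours in this order were further apart than their SDs in the controls. These SDs do not cover error in the exon lengths, which are the same for every library. In plain CPM SLC16A3 (control mean 759.3) stood above BSG (613.5). In the knockdowns the places of CA9 and CA2 were exchanged. CA2 stood at 22.1 and 21.6 CPM per kilobase and CA9 at 19.8 and 20.7, and SLC4A2 at 19.4 and 18.9. In plain CPM the control means of CA9 and CA2 were both 56.1. Their order in the controls therefore rests on the exon lengths, 1.67 and 2.123 kilobases. CA12 came to 0.779 ± 0.130 and came below CA13 at 1.06 ± 0.0978 CPM per kilobase (SD, n = 2).

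**Figure D3:**
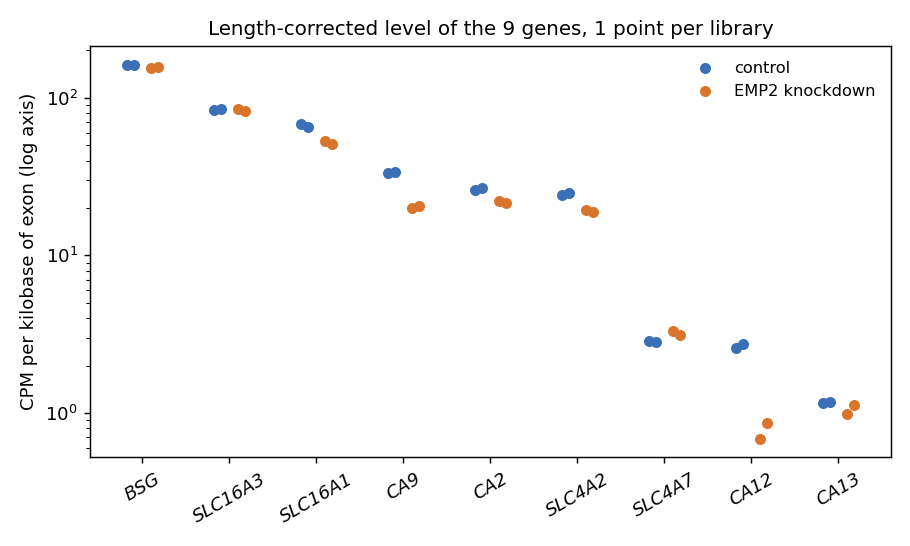
CPM per kilobase of merged exon (vertical log axis) for the 9 genes, ordered by control level; each point is 1 library, control in blue and EMP2 knockdown in orange. CA9 lies above CA2 in both controls and below it in both knockdowns, and CA12 drops from 2.66 to 0.779 CPM per kilobase. The control order of CA9 and CA2 rests on the exon lengths, since their control means in plain CPM were both 56.1.

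The genes whose 4 library values were most like those of CA9, by Euclidean distance between centred log2 levels over the 4 libraries among 10601 genes whose mean reached 5 CPM, were ISG15, OSBP2, DOCK5, NPAS2 and CNTN3, at distances of 0.026 to 0.041. For CA12 they were TNFAIP6, AKR1C2, CASP14, ACTR3B and MAPK4, at 0.22 to 0.31. With 2 groups of 2 libraries this measure reflects mostly the size of the log2 change.

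The other genes of these families were taken as whole families, with related lists of regulators and lactate enzymes, 129 genes in 11 lists. Of 78 tested, 12 rose and 17 fell, 37.2% in all beside 33.4% of all genes tested, and their median log2 change was 0.01. The 51 others did not reach 1 CPM in 2 libraries, and 16 of these were at 0 in all 4. The adjusted p-values that follow are from limma over all 13661 genes. The lists were written with earlier results of these data known, so counts over a list are a description.

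Among the other carbonic anhydrases 9 of 11 were too low to test. CA1, CA4, CA6 and CA10 had no read in any library, and a count of 0 allows up to 3 reads, or 0.208 to 0.227 CPM. CA14, a further transmembrane form, reached at most 1.04 CPM. Of the 2 tested, CA11, a related protein without enzyme activity, fell from 6.92 and 7.04 CPM to 4.95 and 4.72 CPM (log2 change -0.49, adjusted p = 0.0168). Its adjusted p no longer passed when control replicate 1 (0.0638), control replicate 2 (0.0787) or knockdown replicate 2 (0.0663) was left out, with DESeq2 (0.235) or with no filter on low values (0.0574), and over all alternatives the adjusted p ran from 0.0128 to 0.235. The mitochondrial CA5B was at 12.1 ± 1.18 CPM in the controls and at 10.9 ± 0.704 CPM in the knockdowns (SD, n = 2; adjusted p = 0.374).

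Of 7 other SLC16 transporters tested, 2 rose and 1 fell. SLC16A7, which encodes MCT2, a high-affinity transporter of lactate and pyruvate, fell from 51.3 and 46.6 CPM to 29.3 and 28.9 CPM (log2 change -0.74, SE 0.065, adjusted p = 1.62e-07). SLC16A13 rose by 0.53 on the log2 scale (adjusted p = 7.61e-05), with means of 16.7 ± 0.0460 and 24.4 ± 0.331 CPM (SD, n = 2). SLC16A9 rose from 2.67 ± 0.136 to 5.16 ± 0.620 CPM (SD, n = 2; adjusted p = 0.00191), a call lost with DESeq2 (adjusted p = 0.0537; range over alternatives 0.00161 to 0.0537). SLC16A5 was at 36.9 and 35.8 CPM in the group means and did not pass the test. Among the relatives of basigin, EMB, the partner of MCT2, rose from 31.3 and 30.4 CPM to 43.8 and 42.8 CPM (log2 change 0.48, SE 0.061, adjusted p = 1.18e-05). NPTN was at 173.5 ± 3.27 and 178.8 ± 0.223 CPM (SD, n = 2; adjusted p = 0.339). The mRNAs of MCT2 and its partner embigin thus changed in opposite directions.

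Of 5 other SLC4 transporters tested, 1 rose. SLC4A8, a sodium-driven exchanger of chloride for bicarbonate, rose from 3.94 and 4.47 CPM to 6.53 and 6.82 CPM (log2 change 0.61, adjusted p = 0.00588), a call lost with DESeq2 (adjusted p = 0.13; range over alternatives 0.00428 to 0.13). The anion exchanger SLC4A3 was at 18.8 ± 1.25 and 15.8 ± 0.276 CPM (SD, n = 2; adjusted p = 0.0521), and it was called when the test was limited to genes averaging 5 CPM or more (adjusted p = 0.0445). SLC4A11 was at 13.6 and 14.6 CPM in the group means. SLC4A4, an electrogenic bicarbonate cotransporter, stayed under 0.5 CPM.

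Of 8 SLC9 exchangers tested, which trade sodium for protons, 1 rose, a call lost with DESeq2 and without the abundance trend, and none fell; their median log2 change was 0.14. SLC9A8 was at 52.5 and 49.2 CPM in the group means and did not pass. Of 5 regulators, CHP1, a calcium-binding cofactor of sodium-proton exchangers, fell from 343.4 and 330.9 CPM to 286.5 and 282.3 CPM (log2 change -0.24, adjusted p = 5.96e-06; 0.0506 without the abundance trend, the highest over alternatives, from 4.6e-08). The scaffold SLC9A3R1 rose from 33.5 ± 0.302 to 41.7 ± 2.10 CPM (SD, n = 2; adjusted p = 0.000978). EZR was at 194.1 and 195.1 CPM and SLC9A3R2 at 26.1 and 27.2 CPM in the group means, neither past the test.

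SLC26A2, a sulfate transporter of the SLC26 family, rose from 185.4 and 203.0 CPM to 385.7 and 392.8 CPM (log2 change 1.00, SE 0.037, adjusted p = 3.04e-12). It was the 1 gene called of 5 tested in that family; SLC26A6, which exchanges chloride for bicarbonate, was at 20.7 ± 0.354 and 23.5 ± 0.511 CPM (SD, n = 2; adjusted p = 0.0912), and SLC26A1 at 11.4 and 10.7 CPM in the group means. CFTR stayed under 0.2 CPM.

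Of 22 subunits of the vacuolar proton pump tested, 3 rose, 4 fell and 15 did not pass, with a median log2 change of 0.02; the 31.8% called is close to the 33.4% of all genes. ATP6V1B1 and ATP6V0D2, subunit forms known mainly from kidney and bone-resorbing cells, fell from 5.76 ± 0.756 to 2.999 ± 0.427 CPM and from 3.80 ± 0.0128 to 1.87 ± 0.202 CPM (SD, n = 2; adjusted p = 0.00165 and 0.00339). ATP6V1D (log2 change -0.29, adjusted p = 0.000603) and TCIRG1 (-0.22, adjusted p = 0.0042) fell less, and ATP6V1F rose from 56.1 and 58.1 CPM to 71.5 and 66.7 CPM (adjusted p = 0.000551). The rises of ATP6V1C1 (log2 change 0.18, adjusted p = 0.0139) and ATP6V1G1 (0.13, adjusted p = 0.032) were lost under several alternatives. Without knockdown replicate 2 they were 0.09 (adjusted p = 0.243) and 0.08 (adjusted p = 0.268). ATP6V1C1 also lost its call without control replicate 2 (0.0501) and reached 0.28 without knockdown replicate 1, and ATP6V1G1 lost it without control replicate 1 (0.198). Both calls were also lost with DESeq2 (0.111 and 0.261), without the trend (0.217 and 0.227) and with no filter on low values (0.0645 and 0.0778). ATP6V0D2 lost its call with DESeq2 (0.0818), TCIRG1 with DESeq2 (0.0715) and without the trend (0.116), and ATP6V1D (0.0725) and ATP6V1F (0.0605) without the trend. ATP6AP1 was at 164.6 and 172.0 CPM and ATP6V1A at 160.8 and 155.3 CPM in the group means.

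Most other proton pumps, channels and sensors were too low to test, 12 of 15. GPR132, a receptor of the proton-sensing family, rose from 1.18 and 1.14 CPM to 3.01 and 2.17 CPM (adjusted p = 0.00991), a call lost without knockdown replicate 1 (adjusted p = 0.112) and with DESeq2 (0.129; range over alternatives 0.00677 to 0.129). ASIC1 was at 6.69 and 7.80 CPM and ASIC3 at 1.67 and 1.25 CPM in the group means, neither past the test. HVCN1, the voltage-gated proton channel, was at 0 in all 4 libraries.

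Among the genes that make or use lactate and pyruvate, 5 of 10 tested fell and 1 rose, with a median log2 change of -0.19. Of all genes tested, limma called 16.8% lower and 16.6% higher. LDHA, which makes lactate from pyruvate, fell from 1806 and 1786 CPM to 1507 and 1563 CPM (log2 change -0.23, SE 0.022, adjusted p = 5.35e-07), and LDHB from 1571 and 1556 CPM to 1408 and 1398 CPM (log2 change -0.16, adjusted p = 1.46e-05). PDK1, a kinase that shuts pyruvate out of the mitochondrial oxidation route and a known HIF target, fell from 53.1 and 52.3 CPM to 34.4 and 36.4 CPM (log2 change -0.57, adjusted p = 9.63e-07). The mitochondrial pyruvate carrier subunit MPC1 fell from 22.0 and 21.4 CPM to 17.7 and 18.4 CPM (adjusted p = 0.0254). A relative of PDK1, PDK2, fell from 31.1 ± 3.28 to 23.9 ± 0.204 CPM (SD, n = 2; adjusted p = 0.00169), while PDK3 was at 60.7 ± 1.84 and 55.1 ± 3.91 CPM (SD, n = 2; adjusted p = 0.0666), and at an adjusted p = 0.00939 without knockdown replicate 2. The phosphatase PDP1 rose from 24.9 and 24.9 CPM to 27.9 and 33.0 CPM (log2 change 0.28, adjusted p = 0.0135), but without knockdown replicate 2 it was at 0.16 (adjusted p = 0.221); PDP2 was at 41.4 and 38.7 CPM in the group means. Without the abundance trend the calls of LDHA (adjusted p = 0.0567), LDHB (0.0904), MPC1 (0.0506), PDK2 (0.0728) and PDP1 (0.136) were lost, and MPC1 (0.296) and PDP1 (0.167) also lost theirs with DESeq2. MPC1 further lost its call without control replicate 1 (0.126), control replicate 2 (0.0636) or knockdown replicate 1 (0.108). With quantile scaling LDHA and LDHB stayed called, at smaller log2 changes of -0.08 (adjusted p = 0.000331) and -0.06 (adjusted p = 0.00488).

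Beside CA9, HIF genes themselves were measured. Of 9 tested, 5 fell and 0 rose, and at an unadjusted p under 0.05 limma placed 6 lower and 0 higher; edgeR called 5 lower and 0 higher and DESeq2 4 lower and 0 higher. At an adjusted p under 0.05 limma called 16.8% of all genes tested lower, edgeR 17.4% and DESeq2 8.65%. The share of all genes at an unadjusted p under 0.05 was not computed, so these percentages do not apply to the 6 placed lower there. EPAS1, an alpha subunit, fell from 578.6 and 578.6 CPM to 405.4 and 431.1 CPM (log2 change -0.47, SE 0.029, adjusted p = 2.65e-09), and HIF1A from 969.9 and 968.5 CPM to 838.4 and 875.1 CPM (log2 change -0.18, adjusted p = 2.43e-05). The prolyl hydroxylases EGLN1 and EGLN3, which mark HIF for destruction and are themselves induced by low oxygen, fell by 0.21 and 0.54 on the log2 scale (adjusted p = 4e-05 and 0.00151). The fifth gene called was ARNT, the partner subunit (-0.19, adjusted p = 0.0082). VHL was at 102.9 and 96.6 CPM and HIF1AN at 65.1 and 67.6 CPM in the group means, neither past the test. The calls of HIF1A (adjusted p = 0.0877), EGLN1 (0.0561) and EGLN3 (0.0559) were lost without the abundance trend. That of ARNT was lost without the trend (0.0802), with DESeq2 (0.164) and without control replicate 2 (0.0742). HIF activity is set largely at the protein level, which these data do not hold, and its part in the levels of CA9 was not tested.

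**Figure D4:**
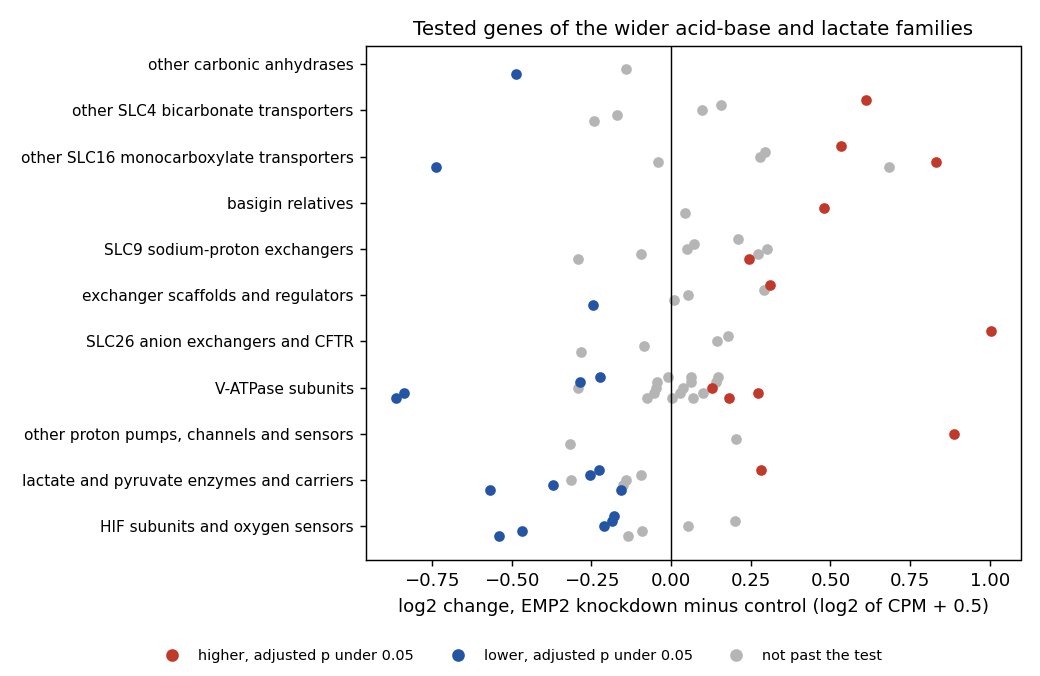
Log2 change (horizontal axis, knockdown minus control on log2 of CPM + 0.5) of the 78 tested genes in 11 lists; each point is a gene, red where higher and blue where lower at an adjusted p under 0.05, grey otherwise. SLC26A2 lies farthest right at 1.00 and ATP6V0D2 farthest left at -0.86, and 5 of 9 HIF and oxygen sensor genes are blue with none red, where 16.8% of all genes tested were called lower.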

How the data were processed

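Ribosomal RNA was removed from 1 µg of total RNA per library, and single reads of 50 bases were sequenced, per the labels' protocols. The tools bcl2fastq 2.17, STAR and DESeq2 and the build GRCh38 are named, per the submitters' processing notes; no source used here names the program that counted reads, its annotation or its strand setting. The authors deposited TMM-normalized CPM per gene, a scaling that removes a shift shared by most genes. In each library 100% of values were whole multiples of 1 read, to within 0.1 read, so reads were recovered for the count tests. The main test was limma 3.58.1 (R 4.3.3) with a mean-variance trend on CPM values after adding 0.5 and taking log2, with group as the only term and two-sided; p-values were adjusted by Benjamini and Hochberg's method over the 13661 genes that reached 1 CPM in 2 or more libraries. The pseudocount of 0.5 understates changes of low genes. Alternatives were edgeR 4.0.16 and DESeq2 1.42.0 on the recovered reads, other scalings, filters and pseudocounts, limma without the trend, a replicate block and leaving out each library. Named were EMP2, the 9 genes, up to 4 called genes in each direction by smallest adjusted p and up to 2 uncalled genes of highest mean per list, and the 5 nearest patterns of CA9 and CA12; ARNT, MPC1, the named markers and genes named as low, overlapping or at 0 were added after their values were seen. Some genes that this rule names are not reported here. The members, lists and tests were chosen with earlier results of these data known. All 4 libraries were counted, since replicates of both groups differed beyond counting noise (chi-square 1.64 and 1.62 per gene). The common coefficient of variation between replicates in edgeR was 2.15%. Neither measure shows whether the libraries of a group came from separate cultures.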

Additional observations from a re-analysis of the deposited data

How the results depend on the processing

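The 5 genes called lower among the 9 were called lower in each alternative that kept all 4 libraries, and stayed lower when 1 library was left out. Since the choice of genes used this contrast, nothing is read from these calls. EMP2 kept its call in the alternatives with all 4 libraries, with log2 changes of -2.46 to -2.41 over all 14. Of the 9, none was called higher except with total-count scaling, which called 1 (SLC4A7, log2 change 0.20). Of 126 values of the 9 genes under the alternatives, 3 moved by over 1 SD (pooled over the groups) and none of a called gene changed sign. The count of moves is not a measure of stability. Leaving out 1 library of 2 cannot move a value by more than this SD. A change of filter, trend or block leaves the log2 change of these genes as it was. The median log2 change of all genes reached 0.02 with total-count scaling, the farthest from 0 of all scalings. Over all genes, limma without the trend called 916 higher and 1016 lower and DESeq2 993 and 1181, against 2269 and 2294. Of the wider lists, limma without the trend called 7 higher and 7 lower, and DESeq2 5 higher and 12 lower, against 12 and 17. Of the 47 genes that the naming rule took from these lists, 42 had a value in all 14 alternatives, and 19 of these kept call and direction in each. Some genes not past the test changed sign when 1 library was left out: ATP6V1A ranged from -0.107 to 0.0093, EZR from -0.0114 to 0.0263, SLC16A5 from -0.133 to 0.049, SLC26A1 from -0.191 to 0.0234 and SLC9A3R2 from -0.0241 to 0.129 (log2). The cause was not tested. With the replicate number as a block the fit called 2162 genes higher and 2180 lower, 13 and 17 of the wider lists. It changed no call of a named gene. The labels do not say whether same-numbered libraries share more than a number. The correlation of their deviations was 0.016 over 11095 genes. Depth limits CA13, at 76 to 93 reads a library, and CA12 in the knockdowns, at 70 and 85.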
